A study of Mus musculus with 4 samples.

Results

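The 7 genes described here, Hras, Nras, Araf, Braf, Map2k1, Map2k2 and Mapk3, encode core members of the Ras, Raf, Mek and Erk cascade. The rule for membership names the symbols and holds no measured value, and each symbol matched 1 of the 39017 genes in the deposited count table. Other genes of the cascade were not analysed here. RNA was sequenced from 4 lung tumors, which the labels place in 1 group (Control) as replicates 1 to 4, with 1 library per tumor. The tumors came from male C57BL/6 KP mice, which have floxed alleles of Trp53 on both chromosomes and form lung adenocarcinoma once Cre recombinase is delivered to the lung. Each mouse had received 1500 viral units of a lentivirus expressing Cre through the trachea, and tumors were collected at 22 weeks and 5 days. The Pgk promoter that drove Cre is active in most cell types, so recombination was not restricted to 1 kind of lung cell by the promoter. The genotype label reads heterozygous fl/wt with no gene given, the sample names of the deposited log2 table carry WT, and the methods of the study put wild-type mice and mice heterozygous for floxed Slc2a1 together as controls.

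In this cascade, small GTPases of the Ras family switch between a GDP-bound resting state and a GTP-bound active state at the inner face of the plasma membrane. Active Ras recruits and activates Raf kinases, Raf phosphorylates Mek, and Mek phosphorylates Erk, which acts on cytoplasmic substrates and on transcription factors in the nucleus. The cascade carries growth factor signals to the cell cycle and is activated by mutation in many lung adenocarcinomas. Its activity is set mainly by GTP loading and phosphorylation, so transcript levels give the supply of each component and not its activity.

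Total counts per tumor were between 8151613 and 8799007, and counts of single cascade genes were between 278 and 2789. Values are given as CPM, counts scaled to the effective library size and given per 1e+06, or as CPM per kilobase of merged exons where genes are compared with each other. Whether a gene's 4 counts varied by more than counting noise was asked with a chi-square test, adjusted by Benjamini-Hochberg over the 14225 genes whose mean reached 1 CPM. The labels do not say whether the tumors came from separate mice, so p-values measure only the spread between these samples. In bulk tumors, fewer cells of a type and less RNA per cell cannot be told apart. Alveolar type 2 markers summed to 29416, 47610, 41778 and 49133 CPM in tumors 1 to 4, and the 4 epithelial markers to 3972, 2587, 2488 and 2632 CPM, so the defining markers of the labelled tissue were present. Club cell markers summed to 36.4, 594, 878 and 521 CPM, lowest in tumor 1. Pan-leukocyte markers were highest in tumor 3, with sums of 104, 124, 252 and 144 CPM, as were macrophage markers (110, 123, 222 and 138 CPM) and T cell markers (2.53, 3.37, 18.3 and 3.45 CPM). Sums over tumors 1 to 4 ran from 6.05 to 17.0 CPM for B cell markers, from 161 to 207 CPM for endothelial markers, from 182 to 348 CPM for fibroblast markers and from 338 to 516 CPM for proliferation genes.

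Reads from paralogous genes could be assigned to the wrong member only where their sequences are alike, so the sequences were compared first. The coding sequences of Hras and Nras were identical at 76.1% of aligned positions (431 of 566), with a longest shared run of 23 nt. Araf and Braf were identical at 67.5% of positions, with a longest shared run of 17 nt. Map2k1 and Map2k2 were identical at 78.3% of positions, with a longest shared run of 56 nt. Each of these runs is shorter than the 85 nt reads. For each gene, the 85-nt windows of 1 transcript, that with the longest coding sequence, were looked up in the annotated transcripts of other genes. Of the 9644 windows of Braf, 62 (0.643%) also occurred in Ndufb2, a gene on the opposite strand with which Braf shares 146 nt of exon. The strand setting of the counting is not given, so reads from this stretch could not be assigned with certainty. The transcripts looked up for the other 6 genes had 0 windows in common with another annotated gene, and their other transcripts were not searched.

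Hras and Nras are less alike at the end of the coding sequence, which encodes the membrane anchor of the protein. The last 60 coding nucleotides before the stop codon are shown because this segment sets the proteins apart, with the CAAX box codons, the signal for farnesylation, in capitals. They are those of the GENCODE M21 transcripts.
Hras: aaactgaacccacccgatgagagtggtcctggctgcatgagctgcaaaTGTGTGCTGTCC
Nras: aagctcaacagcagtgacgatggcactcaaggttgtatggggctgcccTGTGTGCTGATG
The segments were identical at 31 of 60 positions (51.7%), against 396 of 507 positions (78.1%) over the rest of the coding sequence.

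The Ras genes differed from each other both in level and in how far they varied. Hras lies on chromosome 7 at chr7:141189105-141194005 (GRCm38, minus strand; ENSMUSG00000025499). It was measured at 58.3, 47.7, 48.3 and 46.9 CPM in tumors 1 to 4 (mean 50.3 ± 5.38, SD, n = 4). Tumor 1 stood above the others, which lay within 46.9 to 48.3 CPM. The spread of Hras exceeded counting noise (adjusted p = 0.00249, chi-square test with Benjamini-Hochberg adjustment), but without tumor 1 the adjusted p was 0.924. Nras lies at chr3:103058285-103067914 (plus strand; ENSMUSG00000027852). It was measured at 244, 152, 119 and 173 CPM (172 ± 53.2, SD, n = 4), so the highest tumor held 2.05 times the level of the lowest. Nras was highest in tumor 1 and lowest in tumor 3, with tumors 2 and 4 between them (adjusted p = 1.09e-90, chi-square test with Benjamini-Hochberg adjustment). The SD of log2 CPM was 0.43 for Nras and 0.15 for Hras, against 0.039 and 0.070 from counting noise alone.

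The Raf kinases, which receive the signal from Ras, also differed in their spread. Araf lies at chrX:20797814-20860519 (plus strand; ENSMUSG00000001127). It was measured at 119, 129, 116 and 121 CPM (121 ± 5.31, SD, n = 4), a ratio of 1.10 between the highest and the lowest tumor. This was not separable from counting noise (adjusted p = 0.138, chi-square test with Benjamini-Hochberg adjustment, and 0.0675 to 0.728 over the alternative settings). Braf, which encodes the Raf kinase with the highest basal activity, lies at chr6:39603237-39725463 (minus strand; ENSMUSG00000002413). It was measured at 87.1, 132, 164 and 126 CPM (127 ± 31.5, SD, n = 4), 1.88 times as high in tumor 3 as in tumor 1. Tumors 2 and 4 lay close together between these extremes (adjusted p = 7.11e-43, chi-square test with Benjamini-Hochberg adjustment).

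Map2k1 and Map2k2 encode Mek1 and Mek2, the dual-specificity kinases that phosphorylate Erk. Map2k1 lies at chr9:64185770-64253631 (minus strand; ENSMUSG00000004936). It was measured at 128, 143, 94.3 and 128 CPM (123 ± 20.7, SD, n = 4), with tumor 3 below the other tumors (adjusted p = 7.17e-18, chi-square test with Benjamini-Hochberg adjustment). Map2k2 lies at chr10:81105915-81133975 (plus strand; ENSMUSG00000035027). It was measured at 49.0, 40.4, 34.3 and 41.5 CPM (41.3 ± 6.01, SD, n = 4), highest in tumor 1 and lowest in tumor 3. Its spread exceeded counting noise over the 4 tumors (adjusted p = 9.61e-05, chi-square test with Benjamini-Hochberg adjustment), and without tumor 1 the adjusted p was 0.0675.

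Mapk3 encodes Erk1, the kinase at the end of the cascade, and lies at chr7:126759601-126765819 (plus strand; ENSMUSG00000063065). It had the highest CPM of the 7 genes in every tumor, at 307, 308, 282 and 315 CPM (303 ± 14.6, SD, n = 4). The highest tumor held 1.12 times the level of the lowest, tumor 3. This small spread exceeded counting noise (adjusted p = 0.00101, chi-square test with Benjamini-Hochberg adjustment), and without tumor 3 the adjusted p was 0.607.

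**Figure D1:**
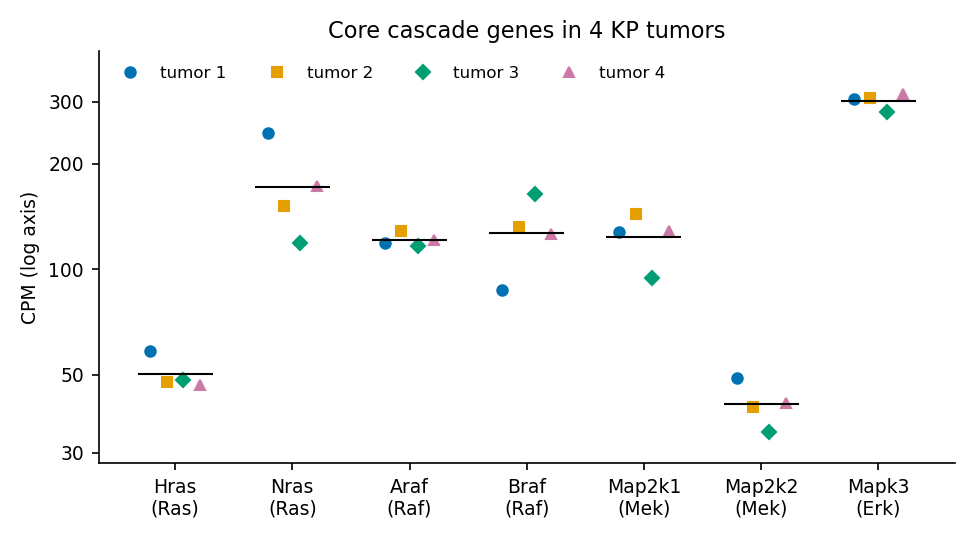
CPM of each cascade gene in tumors 1 to 4, with 1 point per tumor and a horizontal bar at the mean of the 4 tumors. Nras was at 244 CPM in tumor 1 and 119 CPM in tumor 3, where Braf was at 87.1 and 164 CPM, and the highest points of Araf and Mapk3 were 1.10 and 1.12 times the lowest.

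Spread beyond counting noise was the common state at this depth. It was found for 6 of the 7 genes, all but Araf, against 76.7% of all genes tested (10905 of 14225), so a share near the background. The median SD of log2 CPM was 0.21 over the 7 genes and 0.29 over all genes tested, and 5 of the 7 genes lay below the latter. The 7 genes were also more abundant, with a median of 123 CPM against 27.4 CPM. Among the 10269 genes whose mean reached 10 CPM the median SD was 0.25, with Nras, Braf and Map2k1 (0.26) above it. Araf and Mapk3 were at the 1.81 and 2.52 percentiles of the SD among all genes tested, whereas Nras was at 70.5 and Braf at 64.1. Among genes whose mean reached 10 CPM, Araf and Mapk3 were at 2.33 and 3.23, Nras at 81.8 and Braf at 75.9. A single tumor stood apart by Dixon's limit for 1 of the 7 genes, Hras, against 5.86% of all genes tested (834 genes). Tumor 3 held the lowest value for 5 of the 7 genes, Nras, Araf, Map2k1, Map2k2 and Mapk3, and for 32.5% of all genes. Tumor 1 held the highest value for 3 genes, Hras, Nras and Map2k2, and for 31.4% of all genes.

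**Figure D2:**
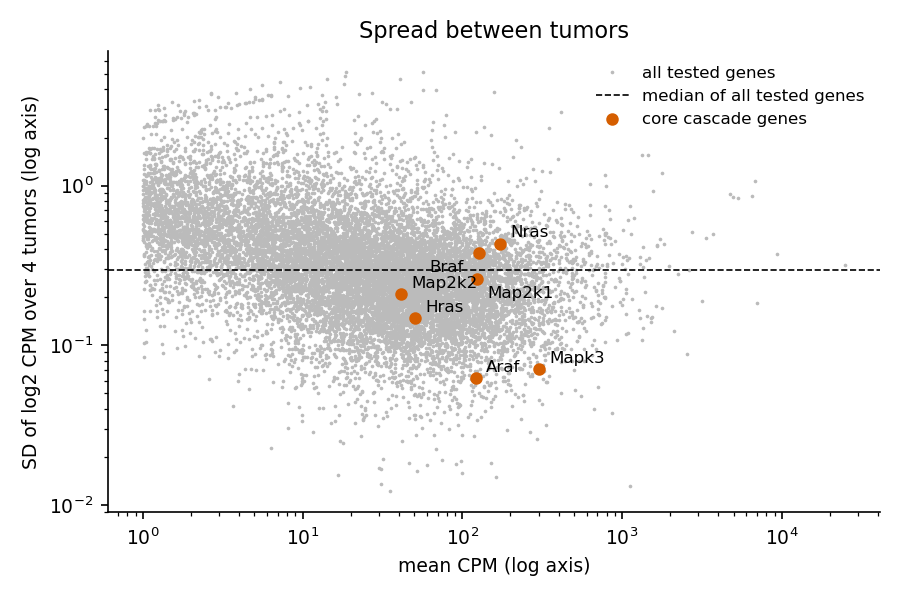
SD of log2 CPM over the 4 tumors against mean CPM, both on log axes, with 1 gray point per tested gene, the 7 cascade genes in orange and a dashed line at the median of all tested genes (0.29). Nras (0.43) and Braf (0.38) lie above the line, and Araf (0.062) and Mapk3 (0.071) lie near the lower edge of the cloud.

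Levels of different genes were compared per kilobase of merged exons. Mapk3 was at 136, 136, 125 and 140 CPM per kilobase (134 ± 6.47, SD, n = 4), and Map2k1 followed at 36.4 ± 6.12 (SD, n = 4). Nras was at 32.2 ± 9.98, Araf at 18.5 ± 0.812, Hras at 13.5 ± 1.44, Braf at 9.18 ± 2.27 and Map2k2 at 7.29 ± 1.06 CPM per kilobase (SD, n = 4). Within tumors, Mapk3 exceeded Map2k1 by 1.90 ± 0.20 on the log2 scale (SD, n = 4), a 3.72-fold difference seen in 4 of 4 tumors. Mapk3 exceeded Map2k2 by 4.21 ± 0.17 (SD, n = 4), or 18.5-fold, and by 7.78 to 9.86-fold with the other lengths (basic transcripts, longest coding transcript or coding sequence), in 4 of 4 tumors each. Nras exceeded Araf by 0.75 ± 0.44, Araf exceeded Hras by 0.46 ± 0.18 and Hras exceeded Braf by 0.58 ± 0.51 on the log2 scale (SD, n = 4), each in 4 of 4 tumors.

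Neighboring genes in this order that did not differ beyond their spread were Map2k1 and Nras, and Braf and Map2k2. The log2 difference of Map2k1 over Nras was -0.28, 0.57, 0.32 and 0.23 in tumors 1 to 4 (exact permutation test by sign flips, two-sided, p = 0.375, adjusted p = 0.394). That of Braf over Map2k2 was -0.46, 0.41, 0.96 and 0.31 (exact permutation test by sign flips, two-sided, p = 0.5, adjusted p = 0.5). In both pairs the order was turned in tumor 1. With 4 tumors the exact test cannot go below p = 0.13, and 0 of the 21 pairs passed 0.05. The order also depended on the length used. Without division by length the log2 difference of Hras over Braf was -1.31, with Hras higher in 0 of 4 tumors. It was 0.34 with the merged exons of basic transcripts, with Hras higher in 3 of 4 tumors. Per kilobase of coding sequence, Nras came first on average, ahead of Mapk3 and Map2k1. There the log2 difference of Mapk3 over Nras was -0.14 ± 0.39 (SD, n = 4), with Mapk3 higher in 2 of 4 tumors. Also per kilobase of coding sequence, Hras exceeded Araf in 4 of 4 tumors and Map2k2 was last. With the merged exons of basic transcripts Map2k2 was in place 5, and with the longest coding transcript in place 6, and Braf was last in both. With the longest coding transcript Araf also came before Nras, which was higher in 1 of 4 tumors only.

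**Figure D3:**
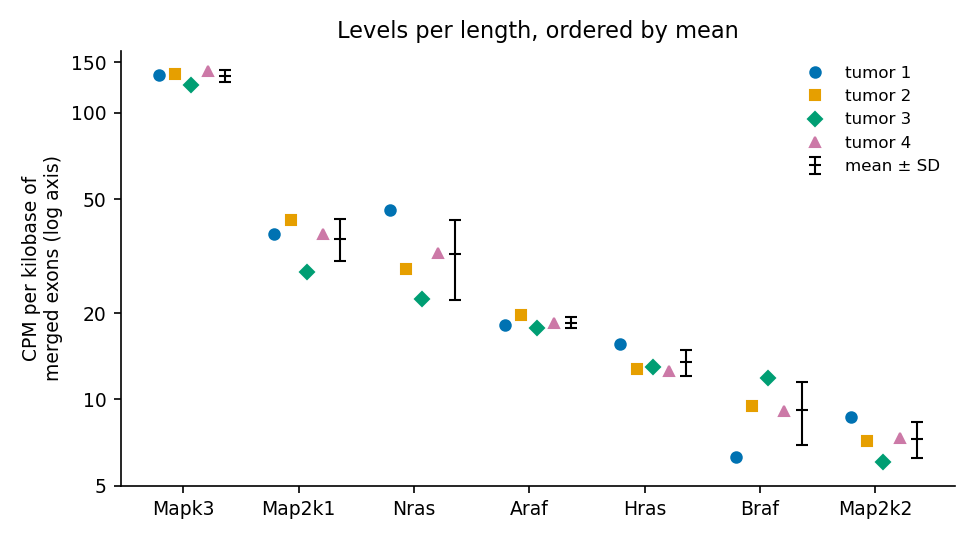
Levels of the 7 cascade genes in CPM per kilobase of merged exons on a log axis, with 1 point per tumor, ordered by mean level. Mapk3 (134 CPM per kilobase on average) stands above all other genes in all 4 tumors, and the points of Map2k1 and Nras, and of Braf and Map2k2, overlap.

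Within each layer of the cascade, 1 paralog was the more abundant per kilobase. Nras exceeded Hras by 1.21 ± 0.33 on the log2 scale, or 2.32-fold, Araf exceeded Braf by 1.05 ± 0.38, or 2.07-fold, and Map2k1 exceeded Map2k2 by 2.31 ± 0.20, or 4.97-fold (SD, n = 4). Each order held in 4 of 4 tumors (exact permutation test by sign flips, two-sided, p = 0.13, the smallest possible, adjusted p = 0.138 over 21 pairs). The order of Araf and Braf rested on the division by length, since the merged exons of Braf span 13862 nt and those of Araf 6541 nt: on CPM alone the log2 difference was -0.035, with Araf higher in 1 of 4 tumors, and it was 0.38 per kilobase of coding sequence and 1.73 with the longest coding transcript. The size of the Mek difference rested on length too, with Map2k1 1.55 to 1.60 above Map2k2 on the log2 scale (2.94 to 3.04-fold) under the other lengths and without division by length.

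The split of counts between paralogs, which needs no length, varied between tumors in all 3 layers. Hras made up 19.3% of the counts of both Ras genes in tumor 1 (95% Wilson interval 17.8 to 20.8%), 24.0% in tumor 2 (22.0 to 26.0%), 28.9% in tumor 3 (26.5 to 31.3%) and 21.4% in tumor 4 (19.5 to 23.3%). These shares differed beyond counting error (chi-square test, adjusted p = 5.98e-11 by Benjamini-Hochberg over the 3 layers). Araf made up 57.7% (55.4 to 59.9%), 49.4% (47.3 to 51.5%), 41.5% (39.5 to 43.6%) and 49.0% (46.8 to 51.1%) of the counts of both Raf genes (chi-square test, adjusted p = 1.35e-22). Araf was thus in the majority in tumor 1 and in the minority in tumor 3, and tumors 2 and 4 were level within their intervals. Map2k1 made up 72.3% (70.1 to 74.5%), 78.0% (75.9 to 80.0%), 73.3% (70.6 to 75.9%) and 75.6% (73.3 to 77.7%) of the counts of both Mek genes (chi-square test, adjusted p = 0.00145). The range over tumors was 9.60 percentage points for Hras, 16.1 for Araf and 5.68 for Map2k1. Without tumor 3 these were 4.69, 8.70 and 5.68 points, and without tumor 1 the Araf range was 7.87 points. Without tumor 2 the Map2k1 range was 3.23 points, no longer separable from counting error (chi-square test, adjusted p = 0.123).

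**Figure D4:**
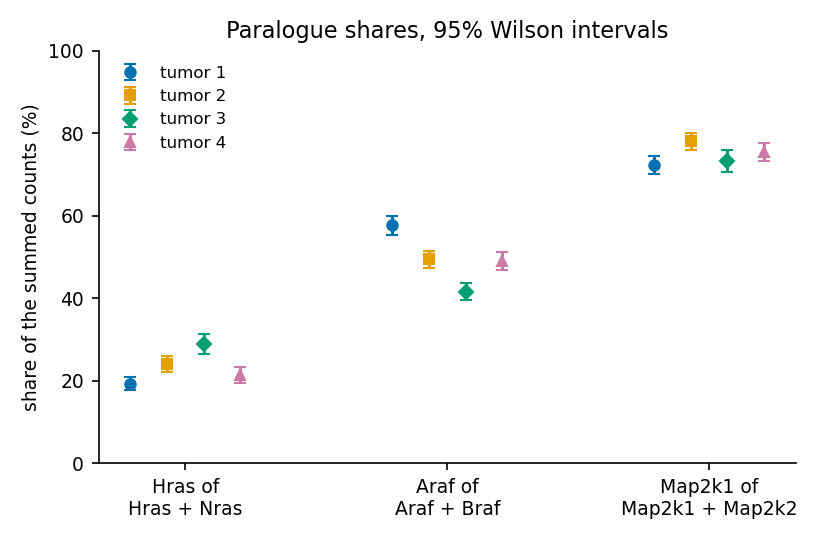
Share of counts, in percent, taken by Hras among Hras and Nras, by Araf among Araf and Braf, and by Map2k1 among Map2k1 and Map2k2 in tumors 1 to 4, with 95% Wilson intervals as bars. The Araf share runs from 57.7% in tumor 1 to 41.5% in tumor 3, and the Map2k1 share stays within 72.3 to 78.0%.

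Nras and Braf, the genes with the widest spread over the 4 tumors, took opposite orders over them. This spread rested in part on tumor 1: without it the SD of log2 CPM was 0.27 for Nras and 0.20 for Braf, below the 0.31 of Map2k1. Nras ranked tumors 1, 4, 2 and 3 from high to low, and Braf ranked them 3, 2, 4 and 1. For Braf, tumors 2 and 4 lay close together (132 and 126 CPM), so the opposite order is clear only for tumors 1 and 3. The ratio of Nras to Braf CPM was 2.81 in tumor 1, 1.15 in tumor 2, 0.725 in tumor 3 and 1.37 in tumor 4. Relative to the mean of the other tumors, tumor 1 had Nras at 0.74 and Braf at -0.68 on the log2 scale, and tumor 3 had Nras at -0.64 and Braf at 0.53. Tumors 1 and 3 were also the tumors with the lowest club cell and the highest leukocyte marker sums, and the part of these markers in the result was not tested. Levels in tumor 1 also moved with transcript length. Here length was that of the longest coding transcript of a gene. Genes over 6000 nt, as Braf is, had a median log2 difference of -0.095 from the other tumors. Genes of 4000 to 6000 nt, as Nras is, had one of -0.018, and genes of at most 2000 nt one of 0.087. In tumor 3 the medians of the longest and the shortest genes were -0.0021 and -0.020, and the part of length in the result was not tested.

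The promoters of Nras and Braf are shown because these genes moved in opposite orders. Each sequence is the 250 nt before the RefSeq gene start on GRCm38.p6, read on the strand of the gene (chr3:103058035-103058284, plus strand, for Nras and chr6:39725464-39725713, minus strand, for Braf). Capitals mark matches on either strand to GGGCGG (GC box), TGACGTCA (cAMP response element), CACGTG (E-box) or CCGGAAG (ETS site).
Nras: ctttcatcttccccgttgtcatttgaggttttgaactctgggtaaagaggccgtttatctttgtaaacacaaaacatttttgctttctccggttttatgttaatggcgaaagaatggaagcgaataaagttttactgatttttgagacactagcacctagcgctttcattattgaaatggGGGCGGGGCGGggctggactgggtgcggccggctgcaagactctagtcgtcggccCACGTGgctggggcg
Braf: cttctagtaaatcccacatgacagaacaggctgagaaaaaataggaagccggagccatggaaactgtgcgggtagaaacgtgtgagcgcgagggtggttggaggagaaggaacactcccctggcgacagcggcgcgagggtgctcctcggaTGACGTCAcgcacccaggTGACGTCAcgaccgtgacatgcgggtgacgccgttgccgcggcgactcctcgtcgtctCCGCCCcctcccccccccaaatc
The Braf window held 2 cAMP response elements and 1 GC box. At least 1 cAMP response element was present in 1.55% of 32851 promoters of the same length. The Nras window held 2 overlapping GC boxes and 1 E-box. At least 1 GC box was present in 32.7% of promoters and at least 1 E-box in 6.02%. Neither the Nras nor the Braf window held the ETS letters (6.91%). GC content was 48.4% for Nras and 62.0% for Braf, against a median of 52.4%. The windows of Hras, Map2k1 and Map2k2 held 3, 4 and 1 GC boxes and no match to the other motifs, and that of Araf held no match to any of the motifs.

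The genes with the pattern most like Nras over the 4 tumors, by root mean square difference of mean-centered log2 CPM among 10268 other genes whose mean reached 10 CPM, were Arhgap22 (0.014), Itfg3 (0.021) and Manba (0.023). For Braf they were Mysm1 (0.016), Rnf11 (0.018) and Xiap (0.019). With 4 tumors such likeness was common, and 146 genes lay within 0.1 of Nras and 149 within 0.1 of Braf.

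The wider pathway was followed in 8 lists of 96 genes, of which 93 passed the filter. Of these 93 genes, 81 (87.1%) varied beyond counting noise, against 76.7% of all genes tested, with a median SD of log2 CPM of 0.25. Among genes with a mean of 20 CPM or more the shares were close, 67 of 75 pathway genes (89.3%) against 88.6% of all genes. Among exchange factors and adaptors, which load Ras with GTP or link it to receptors, 11 of 13 genes varied. The adaptor Shc1 was at 221, 220, 182 and 251 CPM and the phosphatase Ptpn11 at 153, 141, 135 and 150 CPM, whereas the exchange factors Rasgrf1 (21.3, 8.48, 2.59 and 7.73 CPM) and Rasgrf2 (21.8, 9.76, 6.05 and 13.7 CPM) were highest in tumor 1 and lowest in tumor 3, as Nras was. Among GTPase-activating proteins, which switch Ras off, 9 of 9 tested genes varied. Rasa1 was at 113, 115, 132 and 109 CPM and Dab2ip at 63.6, 71.1, 56.4 and 77.5 CPM. Rasa4 reached 21.7 CPM in tumor 2 against 4.04 to 6.05 CPM in the others, and Rasal2 was at 8.14, 15.8, 19.99 and 8.09 CPM.

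Among genes of Ras lipid modification, delivery and turnover, 8 of 10 varied, against 76.7% of all genes tested. Lztr1, an adaptor for Ras ubiquitination, was at 125, 207, 263 and 209 CPM, lowest in tumor 1 and highest in tumor 3, while its cullin Cul3 was at 209, 191, 172 and 190 CPM. Fntb, the beta subunit of farnesyltransferase, was at 21.6, 13.4, 14.6 and 12.6 CPM. Among Ras-related GTPases 9 of 10 varied: Rap1b was at 204, 331, 332 and 288 CPM, Rala at 88.4, 94.8, 138 and 84.0 CPM, Rap2b at 38.8, 15.9, 10.1 and 16.7 CPM, and Mras at 6.71, 4.53, 3.95 and 1.90 CPM.

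Among scaffolds and regulators of Raf, Mek and Erk, 14 of 15 tested genes varied, against 76.7% of all genes tested. The chaperone Hsp90ab1, which holds Raf kinases in an active fold, was at 2926, 2165, 1875 and 2051 CPM. The exception was the scaffold Iqgap1, at 1128, 1128, 1108 and 1129 CPM (adjusted p = 0.543, chi-square test with Benjamini-Hochberg adjustment). Pebp1, an inhibitor of Raf, was at 267, 71.6, 113 and 143 CPM, highest in tumor 1, and Ppp1cc at 19.4, 12.3, 73.55 and 49.4 CPM. Among Erk substrates 8 of 10 varied: the kinase Rps6ka3 was at 178, 278, 362 and 236 CPM, the related Rps6ka2 at 60.1, 18.5, 13.6 and 19.4 CPM, and the transcription factor Ets2 at 131, 158, 114 and 159 CPM.

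Among genes that Erk induces, 13 of 13 varied, against 76.7% of all genes tested and 88.6% of those reaching a mean of 20 CPM. Of the 13 genes, 10 were lowest in tumor 3, against 32.5% of all genes. The mean log2 CPM of the 13 genes was 6.20, 6.22, 5.67 and 6.27 in tumors 1 to 4. Fosl1, an AP-1 subunit, was at 3.41, 1.39, 0.247 and 3.33 CPM, where the value in tumor 3 rests on 2 counts, and without Fosl1, an alternative chosen after the values were seen, the list means were 6.57, 6.69, 6.28 and 6.65. The Ras pathway inhibitor Spry2 was at 86.0, 81.3, 45.8 and 103 CPM and the related inhibitor Spred1 at 484, 657, 470 and 641 CPM. Ccnd1, which encodes cyclin D1, was at 425, 370, 485 and 387 CPM, and was 1 of 2 genes of this list that were highest in tumor 3. Tumor 3 also had the highest leukocyte and T cell marker sums, and their part in the result was not tested.

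Among kinases of the other MAP kinase cascades, 9 of 13 tested genes varied, against 76.7% of all genes tested. Map2k4, an activator of Jnk, was at 99.3, 95.02, 93.7 and 99.1 CPM (adjusted p = 0.577, chi-square test with Benjamini-Hochberg adjustment). Mapk14, which encodes p38 alpha, was at 155, 116, 108 and 124 CPM, and Mapk13 at 57.2, 33.3, 45.3 and 43.2 CPM. Map2k6, an activator of p38, was at 4.62, 5.81, 0.617 and 2.97 CPM, with 5 counts in tumor 3.

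**Figure D5:**
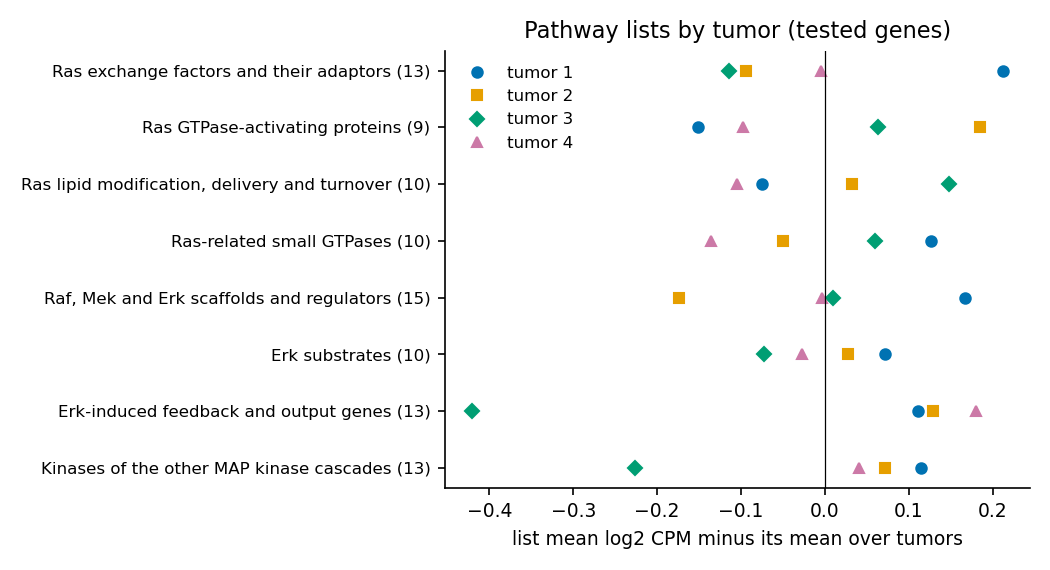
Mean log2 CPM of each of 8 pathway lists in tumors 1 to 4, centered on the mean of the list over tumors, with 1 point per tumor. The list of genes that Erk induces lies at -0.42 in tumor 3 and at 0.11 to 0.18 in the other tumors, and the other lists stay within -0.23 to 0.21.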

How the data were processed

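RNA from 4 macrodissected, dissociated KP lung tumors was measured by stranded sequencing of polyadenylated RNA (500 ng input, single-end 85 nt reads). Per the submitters' processing notes, bcl2fastq 2.17, cutadapt 1.4.2, HISAT2, featureCounts 1.4.4 and edgeR were used with build mm10. The strand setting and annotation release are not given in the sources used here. The deposited tables hold raw counts per Ensembl gene, with no normalization, and 156068 of 156068 counts were equal between the combined table and the single-tumor tables. A table of log2 normalized counts was also deposited by the authors and served as an alternative.

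Effective library sizes were computed by TMM (edgeR 4.0.16, R 4.3.3). Log2 CPM was taken with 0.5 added to counts and 1 to sizes. A mean CPM of at least 1 was required for tests (14225 genes). Floors of 3 counts (0.330 to 0.370 CPM) and 95% Wilson intervals cover counting error only, since reads carried no molecular identifiers. Spread was tested by chi-square against Poisson expectations (3 degrees of freedom, adjusted p at 0.05, Benjamini-Hochberg), tumors apart by Dixon's limit of 0.829, and levels within tumors by exact sign-flip permutation tests (scipy 1.17.1). The chi-square test of spread was checked on simulated Poisson counts, and Dixon's limit on simulated normal values. The tests of shares and of levels within tumors were not checked by simulation. Lengths, overlaps and coding sequences are from GENCODE M21 on GRCm38, and promoters from RefSeq on GRCm38.p6, where Mapk3 had no entry. DESeq2 1.42.0 size factors, other filters, other lengths and left-out tumors were the alternatives.

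The 7 genes and the lists were chosen with earlier results of these data known. Besides the 7 genes, the text names from each pathway list the 2 most abundant genes and the 2 with the largest SD of log2 CPM, and the 3 nearest patterns to Nras and Braf. Ndufb2 is named for its overlap with Braf.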

Additional observations from a re-analysis of the deposited data

Results flagged for a closer look

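Of 49 values tested over the 4 tumors, 4 had 1 tumor farther from the others than Dixon's limit, where chance gives about 2.45. Hras was at 58.3 CPM in tumor 1 and at 46.9 to 48.3 CPM in the others. The log2 level of Map2k1 over Araf per kilobase was 0.64 in tumor 3 and 1.03 to 1.10 in the others. The list of genes that Erk induces had a mean log2 CPM of 5.67 in tumor 3 and of 6.20 to 6.27 in the others, and without Fosl1 tumor 3 (6.28) was no longer past the limit. The T cell markers had a mean log2 CPM of 2.09 in tumor 3 and of -0.46 to -0.07 in the others.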

How the results depend on the processing

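Of 119 alternative values computed for 16 results, 114 were scored as unchanged. Level differences had to keep their sign, and test results their side of the threshold. Counts of genes only had to stay within a set fold of the main value. The fall from 6 to 4 varying cascade genes without tumor 1 was therefore among those scored as unchanged. The level of Araf over Braf became -0.035 on the log2 scale without division by length, and was 0.38 per kilobase of coding sequence. The range of the Map2k1 share over tumors was 5.68 percentage points, and 3.23 to 5.68 with each tumor left out, lowest without tumor 2; the ranges were 4.69 to 9.60 for the Hras share and 7.87 to 16.1 for the Araf share. Without each tumor in turn, the number of cascade genes varying beyond counting noise was 4 to 6 (Hras and Map2k2 lost without tumor 1, Mapk3 without tumor 3), against 62.3 to 71.9% of all genes. It was 6 under DESeq2 size factors and library size alone (76.6 and 77.3% of all genes), with no filter (53.5%) and at a mean CPM of at least 20 (88.6%, above the share of the cascade genes). The pathway lists had 69 to 76 varying genes with each tumor left out. No paired analysis was possible because the design has 1 group. At this depth Fosl1 in tumor 3, with 2 counts, lay under the floor of 3 counts.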
